A study of Homo sapiens with 6 samples.

Results

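The mRNAs that encode core proteins of the spliceosome were followed in native ORC1 RNA immunoprecipitation sequencing (RIP-seq) of HCT116 nuclei. The rule that picks them uses gene symbols and no measured value. The set takes symbols that start with SF3A, SF3B, SNRNP, SNRP, PRPF or LSM and 14 further genes such as U2AF1, U2AF2, SRRM1 and SRRM2, and it leaves out SNRPN and pseudogenes. The rule matched 81 of the 23013 genes in the deposited table, and 65 remained once 16 pseudogenes were removed. All 65 passed the filter on low values. LSM8 and SF3B6 were not analysed here.

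In RIP-seq an antibody recovers a protein from cell extract, and the RNA bound along with it is sequenced. The study used it to find RNAs that associate with ORC1, the origin recognition complex protein that helps to mark where DNA replication starts. HCT116 is a human colorectal cancer cell line, and all cells here were untreated and asynchronous. The 3 inputs were nuclear RNA with no antibody, and the 3 ORC1 IPs came from native nuclear extract with an antibody against endogenous ORC1. An input and an IP that share a replicate number come from the same RIP experiment according to the labels, and the study describes the RIP as done in triplicate. The labels do not say whether the replicates were separate cultures, so p-values measure the spread between these libraries. No library with a control antibody was analysed here. A value is a gene's read count divided by the size factor of its library (normalised count), so more of one RNA and less of the others in an IP cannot be told apart.

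The spliceosome removes introns from pre-mRNA and is built from small nuclear ribonucleoproteins (snRNPs), particles of a short RNA and its proteins. U1 snRNP binds the 5′ splice site, U2 snRNP binds the branch point with the help of U2AF and SF1, and the U4/U6.U5 tri-snRNP then joins and is rearranged, with the Prp19-related proteins, into the catalytic machine. The U1, U2, U4 and U5 particles share a ring of Sm proteins, U6 carries a ring of related LSm proteins, and the exon junction complex (EJC) is left on the joined mRNA. The RNAs measured here are the messages for these proteins, not the small nuclear RNAs themselves.

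The study marks GAA repeats in RNAs that associate with ORC1, so the sense strand of the canonical transcript of every gene was searched for at least 3 tandem copies of GAA. The stretch occurred in 12 of the 65 mRNAs (18.5%) and in 13.0% of the 16062 tested genes that had a transcript in GENCODE v44 (GRCh38). In 11 of the 12 it lay in the coding sequence, and 5 of these are shown. PRPF4B holds it in exon 3 of 15, at chr6:4037467-4037496 on the plus strand. CWC22 holds it in exon 12 of 20, at chr2:179965895-179965924 on the minus strand. SRRM1 holds it in exon 8 of 17, at chr1:24652953-24652982 on the plus strand, and SRRM2 in exon 5 of 15, at chr16:2758506-2758535 on the plus strand. These 4 mRNAs had IP means well above their input means, though ORC1 IP 2 of SRRM1 and SRRM2 lay within the inputs. U2AF2, which holds the stretch but had no such rise, is set beside them. The 5 were picked with their values known and do not stand for the 12, which are summarised together below. U2AF2 holds it in exon 4 of 12, at chr19:55660525-55660554 on the plus strand. Each sequence is written 5′ to 3′ along the mRNA strand with T for U, and capitals mark the tandem GAA copies.
PRPF4B: tctccaacccGAAGAAGAAgtagatctccc
CWC22: agaggacgagGAAGAAGAAgaggaagaggg
SRRM1: ccatctcctcGAAGAAGAActccgccaaga
SRRM2: cccaaagcaGAAGAAGAAGAAaaagaagaa
U2AF2: ccgccacgaGAAGAAGAAGAAggtccgtaa
All 5 hold 3 or 4 copies of GAA, and their values in the IPs, which differ, are given below by role.

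Reads recovered on genes numbered 13703033 to 17248924 per input and 25134156 to 36008733 per ORC1 IP. The size factors of inputs 1, 2 and 3 were 0.948, 0.635 and 0.855. Those of ORC1 IPs 1, 2 and 3 were 0.869, 1.72 and 1.34. ORC1 IPs 1 and 2 had 26213138 and 25134156 reads, so at a similar depth the counts of ORC1 IP 2 were divided by a larger factor. One library stood apart: ORC1 IP 2 correlated with ORC1 IPs 1 and 3 at r = 0.902 and 0.920 over log2 values of all genes, while ORC1 IPs 1 and 3 correlated with each other at 0.958, and its closest library was input 1 at 0.941. The main results below are therefore also given without it. ORC1 IP 2 was the lowest IP for 46 of the 65 mRNAs, so leaving it out raises most of their fold changes. The p-values without it depend on that choice. The median log2 fold change of the 65 was 0.42 without ORC1 IP 2, -0.19 without ORC1 IP 1 and 0.05 without ORC1 IP 3. All 6 epithelial markers were in the table, and their summed normalised count ran from 49755 to 139902 in inputs and from 17887 in ORC1 IP 2 to 146124 in ORC1 IP 1. Of markers of blood, endothelial, fibroblast and liver cells, 5 of 15 were in the table, and only the fibroblast marker COL1A1 went above 40 (161 to 298 in inputs, 432 to 787 in IPs). The part that cell identity markers play in the results was not tested.

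The 65 mRNAs took 1.12%, 1.40% and 1.16% of the reads of inputs 1, 2 and 3. They took 2.41%, 0.938% and 2.22% of the reads of ORC1 IPs 1, 2 and 3. ORC1 IPs 1 and 3 were above every input and ORC1 IP 2 was below every input, so the groups overlapped. The mean share was 1.23% ± 0.152 (SD, n = 3) in inputs and 1.86% ± 0.80 (SD, n = 3) in IPs (two-sided exact permutation test, p = 0.4, where 0.1 is the smallest possible). Without ORC1 IP 2 the IP mean was 2.31% ± 0.130 (exact permutation p = 0.1, the smallest possible). SRRM2 alone, which encodes the large scaffold protein of nuclear speckles, took 0.0780% to 0.144% of the reads in inputs, and its share was 0.490%, 0.130% and 0.426% in ORC1 IPs 1, 2 and 3. Leaving SRRM2 out gave 1.11% ± 0.133 in inputs and 1.51% ± 0.608 in IPs (exact permutation p = 0.4), and 1.86% ± 0.0848 in IPs without ORC1 IP 2 (exact permutation p = 0.1, the smallest possible).

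**Figure D1:**
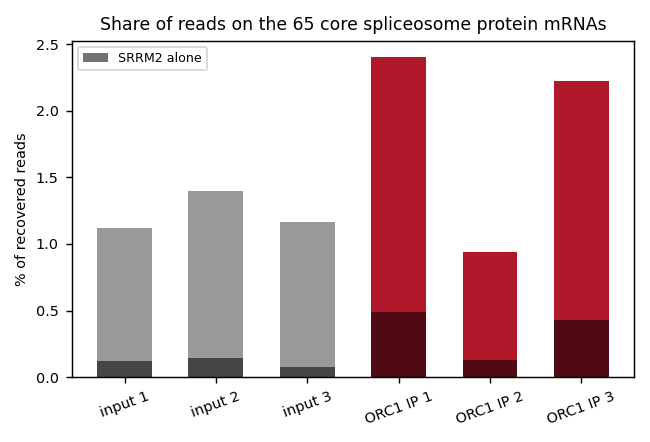
Share of each library's recovered reads (y axis, percent) that fell on the 65 core spliceosome protein mRNAs, 1 bar per library, inputs in grey and ORC1 IPs in red, with the part on SRRM2 in the darker shade. ORC1 IPs 1 and 3 reach 2.41% and 2.22%, and ORC1 IP 2, at 0.938%, lies below the lowest input, 1.12%.

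Across all 6 libraries 1 of the 65 mRNAs, PRPF4B, was higher in ORC1 IP and 1, SF3B5, was lower (limma, Benjamini-Hochberg adjusted p under 0.05 over 16513 genes), near the background of 2.28% of all genes called higher and 1.42% called lower. The other 63 did not pass. At an unadjusted p under 0.05, 9 were higher and 6 lower, beside 12.2% and 9.45% of all genes. The study called RNAs enriched with DESeq2 at a log2 fold change over 1 and a p under 0.05. That cut-off on the unadjusted p of the limma fit gave 9 higher (10.9% of all genes). The reverse cut-off, a log2 fold change under -1, was added here and gave 5 lower (7.25% of all genes). All 3 IPs lay above all 3 inputs for 5 mRNAs (PRPF4B, CWC22, PRPF3, PRPF39 and PRPF40B; 12.7% of all genes) and below them for 6 (SF3B5, SNRPB, SNRNP40, LSM2, SNRPF and SNRPG; 13.5% of all genes). The median log2 fold change was 0.10 over the 65 mRNAs, 35 of them positive, and 0.01 over all genes tested.

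Much of the spread among the IPs came with ORC1 IP 2. It was the lowest of the 3 IPs for 46 of the 65 mRNAs, a count that was not made over all genes. It lay below all 3 inputs for 39 of the 65, beside 38.2% of all genes. At a mean normalised count of 1000 or more over all 6 libraries it did so for 31 of 43 mRNAs, beside 57.2% of such genes. That mean includes the IPs, so IP values helped to decide which mRNAs reached the bound. CWC22, with an input mean of 716 and an IP mean of 3589, reached it. SF3B5, with an input mean of 1511 and an IP mean of 407, did not. For 12 mRNAs (7.41% of all genes) ORC1 IPs 1 and 3 were above every input while ORC1 IP 2 was below every input. The median log2 difference from the input mean was 0.58, -0.54 and 0.06 in ORC1 IPs 1, 2 and 3, against -0.01, -0.02 and 0.07 for all genes. The medians lay farther apart among abundant mRNAs. Among the 43 mRNAs whose mean normalised count was 1000 or more the medians were 1.04, -0.89 and 0.30, and among all 4592 such genes they were 0.30, -0.47 and 0.32. Without ORC1 IP 2, 17 of the 65 mRNAs were higher and 4 lower (limma, adjusted p under 0.05; 11.9% and 6.38% of all genes), and the median log2 fold change was 0.42 against 0.02 for all genes. Of the 43 abundant mRNAs 15 were then higher, as were 1074 of the 4592 abundant genes.

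Other fits of all 6 libraries moved these counts. edgeR on recovered reads called 2 of the 65 higher and 1 lower (2.57% and 1.31% of all genes), the replicate block called 2 and 1 (2.62% and 1.16%), and DESeq2 on recovered reads called 9 and 3 (7.67% and 4.35%). A correction of each library for GC content and length called 0 and 0 (limma, 0.816% and 0.342% of all genes, and 6 higher and 6 lower members at an unadjusted p under 0.05). The mRNAs higher in DESeq2 included PRPF4B, CWC22, PRPF3, PRPF39, CDC5L, SRRM1, SRRM2 and SF3B1, and the 3 lower ones were SF3B5, SNRPB and SNRNP40.

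**Figure D2:**
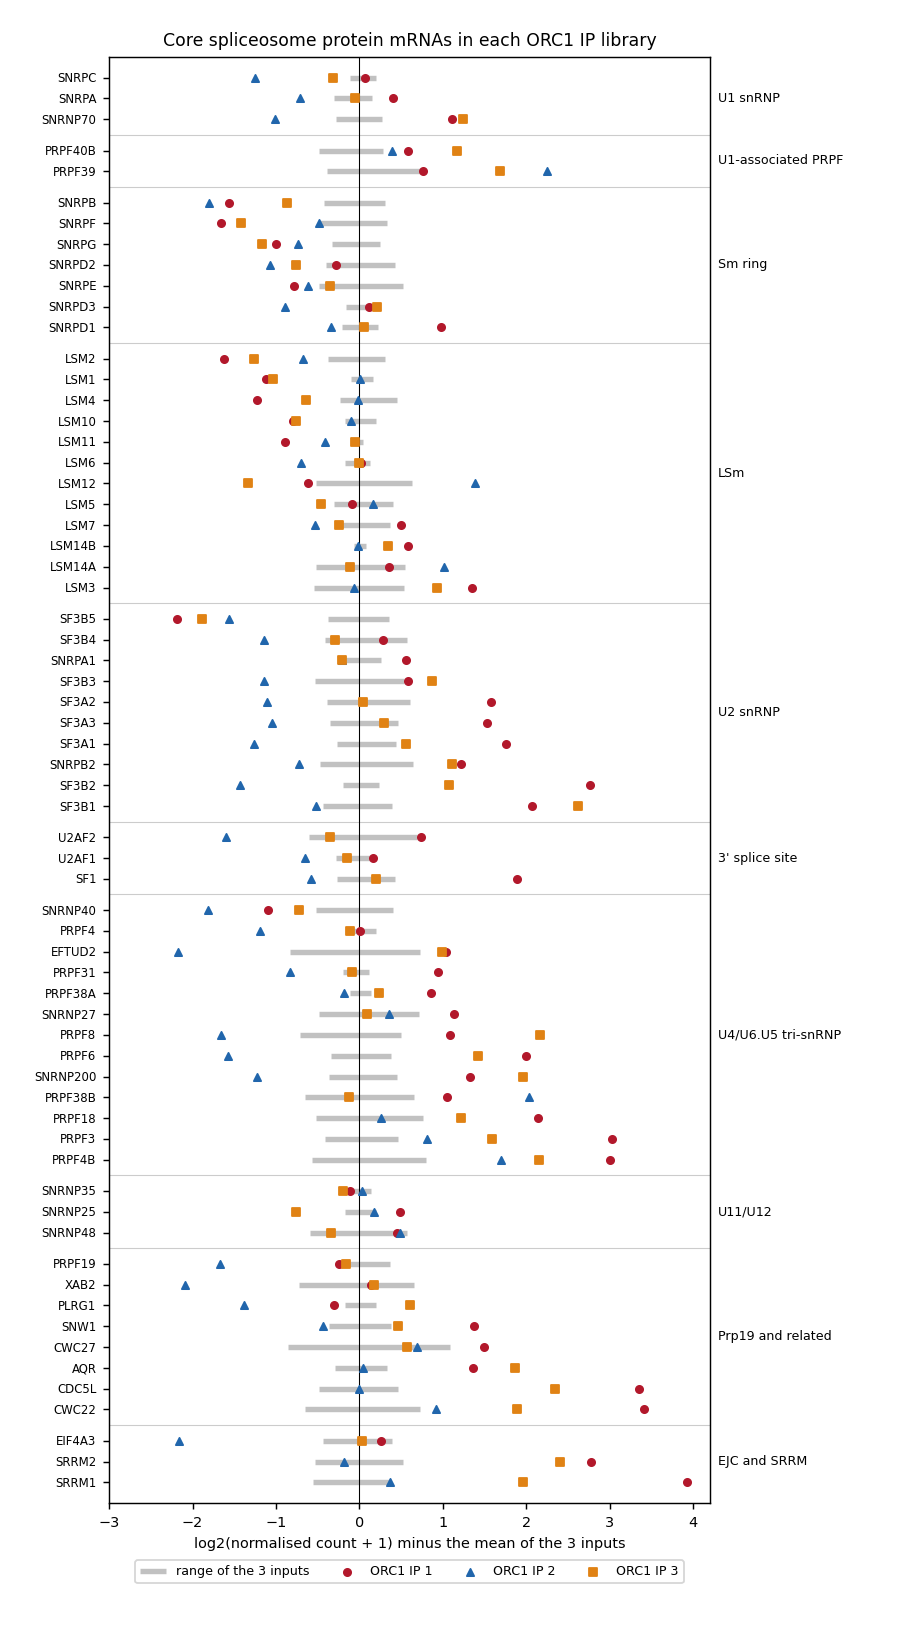
Of the 65 mRNAs, 64 in each ORC1 IP: the x axis is log2(normalised count + 1) minus the mean of the 3 inputs, rows are genes grouped by role, the grey bar is the range of the 3 inputs, and circles, triangles and squares are ORC1 IPs 1, 2 and 3. The triangle of ORC1 IP 2 is the lowest of the 3 IPs for 45 of those drawn, while for SF3B5 and SNRPB all 3 symbols lie left of the bar and for PRPF4B and CWC22 all 3 lie right of it.

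The tri-snRNP mRNAs held the one mRNA that rose. PRPF4B (ENSG00000112739, chr6:4021267-4064983, plus strand) encodes a kinase that associates with the tri-snRNP, and its normalised counts were 2425, 1193 and 939.6 for inputs 1, 2 and 3, against 11226, 4539 and 6225 for ORC1 IPs 1, 2 and 3. Every IP was above every input. The log2 fold change was 2.29 ± 0.50 (SE), or 4.88-fold, with an adjusted p of 0.030 (limma). It was 2.58 without ORC1 IP 2 (limma, adjusted p = 0.002). The adjusted p went above the threshold without input 2 (0.154), input 3 (0.266), ORC1 IP 1 (0.060) or ORC1 IP 3 (0.080), and after GC content and length had been corrected for (0.071). Fewer genes passed over all genes too in each of these settings.

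PRPF3, a U4/U6 protein, had 1217, 1743 and 949 in inputs and 10283, 2213 and 3815 in ORC1 IPs 1, 2 and 3. The groups did not overlap, and the log2 fold change of 1.81 ± 0.53 did not pass (limma, adjusted p = 0.077), whereas it was 2.31 and passed without ORC1 IP 2 (limma, adjusted p = 0.003). PRPF8, the U5 protein at the catalytic centre, had 13063, 30267 and 24920.1 in inputs and 45636, 6773 and 96034 in ORC1 IPs. Its IPs lay on both sides of the inputs, the log2 fold change was 0.53 ± 1.03 (limma, adjusted p = 0.813), and without ORC1 IP 2 it was 1.63 and passed (limma, adjusted p = 0.040). SNRNP200, the helicase that unwinds U4 from U6, and PRPF6, which bridges U5 and U4/U6, likewise had ORC1 IPs 1 and 3 above and ORC1 IP 2 below every input, at 0.69 and 0.61 with all libraries and at 1.65 and 1.71 without ORC1 IP 2 (limma, adjusted p = 0.022 and 0.008). SNRNP40, a U5 protein, was at the other end of the group with 2717, 5169 and 4212 in inputs and 1819, 1107 and 2353 in ORC1 IPs. All its IPs were below the inputs, and its log2 fold change was -1.21 ± 0.44 (limma, adjusted p = 0.129), and -0.91 without ORC1 IP 2 (limma, adjusted p = 0.098). Over the 13 tri-snRNP mRNAs the median log2 fold change was 0.53, and 1.01 without ORC1 IP 2, when 6 were higher (limma, adjusted p under 0.05; 11.9% of all genes).

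Among the U2 snRNP mRNAs SF3B5 fell, while SF3B1 had its IPs on both sides of the inputs. SF3B5 (ENSG00000169976, chr6:144094884-144095573, minus strand), an SF3B subunit with the shortest canonical transcript of the 10 U2 mRNAs (690 nt), had 1137, 1502 and 1893 in inputs and 325, 498 and 399 in ORC1 IPs 1, 2 and 3. The highest IP was under the lowest input. The log2 fold change was -1.88 ± 0.35, 3.68-fold lower, with an adjusted p of 0.018 (limma), and it was -2.03 without ORC1 IP 2 (limma, adjusted p = 0.002). The adjusted p went above the threshold without input 2 (0.082), input 3 (0.172) or ORC1 IP 3 (0.070), with scaling by total count (0.055), and after the correction for GC content and length (0.061). Fewer genes passed over all genes too in each of these settings.

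SF3B1, which clamps the branch point helix, had 11126, 14001 and 7887 in inputs and 44767, 7437 and 65979 in ORC1 IPs. ORC1 IPs 1 and 3 were above every input and ORC1 IP 2 was below every input. The log2 fold change was 1.39 ± 0.87 (limma, adjusted p = 0.385), and 2.34 without ORC1 IP 2 (limma, adjusted p = 0.003). SF3B2, another SF3B subunit, went from 0.80 to 1.92 when ORC1 IP 2 was left out (limma, adjusted p = 0.667 and 0.016). Over the 10 U2 mRNAs the median went from 0.22 to 0.86, and none had an ORC1 IP 2 value above its input mean.

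The 3 factors of the 3′ splice site did not pass with or without ORC1 IP 2. U2AF2, which binds the polypyrimidine tract, had 5261, 12803 and 7513 in inputs and 13304, 2619.6 and 6227 in ORC1 IPs. The ranges overlapped, and the log2 fold change was -0.41 ± 0.65 (limma, adjusted p = 0.768) and 0.19 without ORC1 IP 2. SF1, the branch point binding protein, was at 0.50 ± 0.69 (limma, adjusted p = 0.727) and 1.04 without ORC1 IP 2 (limma, adjusted p = 0.149), with ORC1 IP 1 at 31220.3 and the other 2 IPs at 5635 and 9706.

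The mRNAs of the Prp19-related proteins, the EJC and the SRRM proteins held several of the highest differences. CWC22, which recruits the EJC helicase to the spliceosome, had 1093, 635 and 420.1 in inputs and 7054, 1252 and 2460.1 in ORC1 IPs 1, 2 and 3. Every IP was above every input, and the log2 fold change was 2.07 ± 0.57. It missed the threshold (limma, adjusted p = 0.062) and passed with the replicate number as a block (limma, adjusted p = 0.020) or in edgeR on recovered reads (adjusted p = 0.047), so that these fits called 2 mRNAs higher in place of 1. Without ORC1 IP 2 it was 2.65 (limma, adjusted p = 0.002). CDC5L, a core Prp19 complex protein, had 2148, 1590.2 and 1119.8 in inputs and 16015, 1552 and 7968 in ORC1 IPs, where ORC1 IP 2 lay among the inputs. Its log2 fold change was 1.90 ± 0.70 (limma, adjusted p = 0.136), and 2.85 without ORC1 IP 2 (limma, adjusted p = 8.43e-04). PRPF19, the ubiquitin ligase that names the complex, was the lowest of its group at -0.69 ± 0.51 (limma, adjusted p = 0.468), and at -0.20 without ORC1 IP 2 (limma, adjusted p = 0.732).

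SRRM1, a splicing coactivator rich in serine and arginine repeats, had 4459, 3850.2 and 2331 in inputs and 52056, 4405 and 13292 in ORC1 IPs. ORC1 IP 1 was the highest and ORC1 IP 2 fell within the inputs. The log2 fold change was 2.08 ± 0.77 (limma, adjusted p = 0.139), and 2.94 without ORC1 IP 2 (limma, adjusted p = 0.002). SRRM2 had 21876, 30998 and 14995 in inputs and 147894, 18993 and 114281 in ORC1 IPs, the same order. Its log2 fold change was 1.66 ± 1.08 (limma, adjusted p = 0.402), and 2.59 without ORC1 IP 2 (limma, adjusted p = 0.003). EIF4A3, the EJC helicase, did not share this, at -0.62 ± 0.66 and at 0.15 without ORC1 IP 2 (limma, adjusted p = 0.633 and 0.828).

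**Figure D3:**
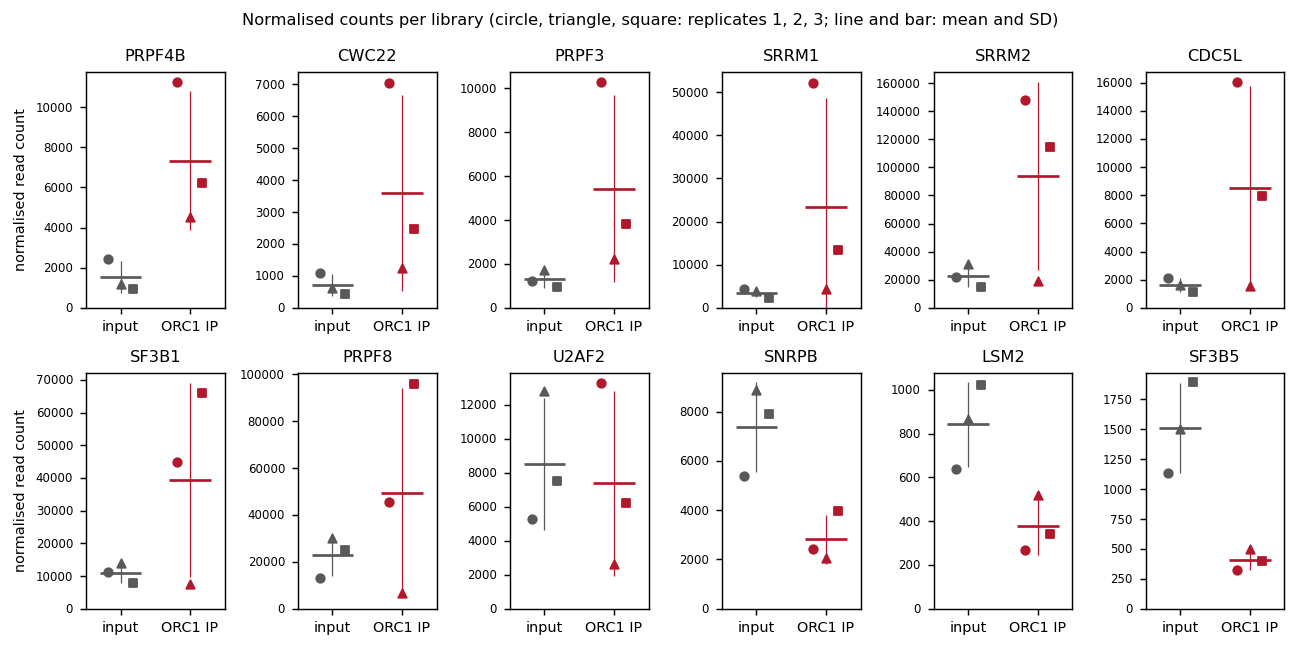
Normalised read counts (y axis, linear from 0, a scale of its own for each gene) of 12 mRNAs in the 3 inputs (grey) and the 3 ORC1 IPs (red), with circles, triangles and squares for replicates 1, 2 and 3, a line for the mean and a bar for 1 SD cut at 0. PRPF4B, CWC22 and PRPF3 have every IP above every input, SNRPB, LSM2 and SF3B5 have every IP below, and the triangle of ORC1 IP 2 drops to 6773 for PRPF8 against 45636 and 96034 in the other IPs.

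The U1 snRNP itself and its associated PRPF proteins differed in their medians, -0.12 for the first 3 mRNAs and 1.57 for the other 3. SNRNP70, which binds the U1 RNA, had 4114, 5005 and 6017 in inputs and 10777, 2477 and 11836 in ORC1 IPs, again with ORC1 IP 2 below the inputs. Its log2 fold change was 0.45 ± 0.62 (limma, adjusted p = 0.726), and 1.18 without ORC1 IP 2 (limma, adjusted p = 0.034). SNRPC, which stabilises pairing of U1 with the 5′ splice site, was at -0.50 ± 0.41 (limma, adjusted p = 0.511), and at -0.13 without ORC1 IP 2 (limma, adjusted p = 0.823). PRPF39 was an exception to the order of the IPs. It had 559, 265 and 257 in inputs and 572, 1608 and 1084 in ORC1 IPs, so that ORC1 IP 2 was its highest library, and its log2 fold change was 1.57 ± 0.45 (limma, adjusted p = 0.070) and 1.22 without ORC1 IP 2 (limma, adjusted p = 0.057). It passed without ORC1 IP 1 (limma, adjusted p = 0.035). PRPF40B was at 0.71 ± 0.38 (limma, adjusted p = 0.30), and at 0.87 without ORC1 IP 2 (limma, adjusted p = 0.123).

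The Sm ring mRNAs lay mostly below input. Of 7, 6 had negative log2 fold changes, the median was -0.70 (-0.57 without ORC1 IP 2), and none passed in limma with all libraries (0 higher and 3 lower at an unadjusted p under 0.05), while DESeq2 called SNRPB lower (adjusted p = 0.011). SNRPB, which encodes SmB/B′, had 5372, 8899.6 and 7892 in inputs and 2436, 2076 and 3952 in ORC1 IPs. All IPs were below all inputs, and the log2 fold change was -1.41 ± 0.46 (limma, adjusted p = 0.104) and -1.22 without ORC1 IP 2 (limma, adjusted p = 0.038). SNRPF, another ring protein, was at -1.19 ± 0.40 (limma, adjusted p = 0.110) and -1.54 without ORC1 IP 2 (limma, adjusted p = 0.009). SNRPD1 was the one with a positive value, 0.23 ± 0.41 (limma, adjusted p = 0.788). Per kilobase of canonical transcript the Sm mRNAs SNRPD2 and SNRPB had the highest input levels of all 65, 9411 ± 2726 and 6828 ± 1679.6 normalised counts per kb (SD, n = 3).

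The 12 LSm mRNAs, which also take in LSM10 and LSM11 of the U7 snRNP and the LSM12 and LSM14 proteins that are not part of a spliceosomal ring, had a median log2 fold change of -0.21, and -0.38 without ORC1 IP 2. Over LSM2 to LSM7, the members of the U6 ring measured here, it was -0.18. LSM2 had 636, 868 and 1024 in inputs and 267, 518 and 344 in ORC1 IPs, all below the inputs, at -1.19 ± 0.37 (limma, adjusted p = 0.091) and -1.45 without ORC1 IP 2 (limma, adjusted p = 0.011). LSM3 was at the other end at 0.74 ± 0.43 (limma, adjusted p = 0.35) and 1.14 without ORC1 IP 2 (limma, adjusted p = 0.047). LSM4 was at -0.63 ± 0.45 (limma, adjusted p = 0.445), and at -0.94 without ORC1 IP 2 (limma, adjusted p = 0.087). The LSm mRNAs covered both directions around a median that was below that of all genes.

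The 3 mRNAs of the U11/U12 snRNP of the minor spliceosome, which removes a rare class of introns, were close to input. SNRNP35 had 200.5, 247 and 227 in inputs and 207, 229 and 196 in ORC1 IPs, at -0.09 ± 0.35 (limma, adjusted p = 0.911). SNRNP48 was at 0.20 ± 0.40 (limma, adjusted p = 0.822), and at -0.02 with scaling by total count. None of the 3 passed without ORC1 IP 2.

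With all roles pooled, longer mRNAs tended to have higher log2 fold changes, and no rho was computed within a role. Over the 65 mRNAs the log2 fold change and the length of the canonical transcript had a Spearman rho of 0.64, and over the 16062 genes with a transcript it was 0.35. The rho over the 65 was 0.67 without ORC1 IP 2, and 0.57, 0.16 and 0.74 for ORC1 IPs 1, 2 and 3 each set against the input mean. After each library was corrected for GC content and longest transcript length, the rho was 0.45 over the 65 and 0.045 over the 16062 genes. Against the length of the longest transcript, the corrected log2 fold changes had a rho of 0.31 and 0.0047. These are descriptions across genes, which share the same 6 libraries and are not replicates. The 24 mRNAs of up to 2 kb had a median log2 fold change of -0.45, against -0.30 for all genes of that length. The 25 mRNAs of 2 to 4 kb had 0.42 against -0.03, and the 16 longer ones had 0.61 against 0.33. The roles differed in length too: the canonical transcripts of the 7 Sm mRNAs had a median of 1082 nt and those of the 13 tri-snRNP mRNAs 3047 nt. LSM11, the longest of the LSm mRNAs at 6567 nt, had a log2 fold change of -0.45 ± 0.35 (limma, adjusted p = 0.494). The part that length plays in the differences between roles was not tested. For GC content the rho was -0.33 over the 65 mRNAs and -0.19 over all genes.

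**Figure D4:**
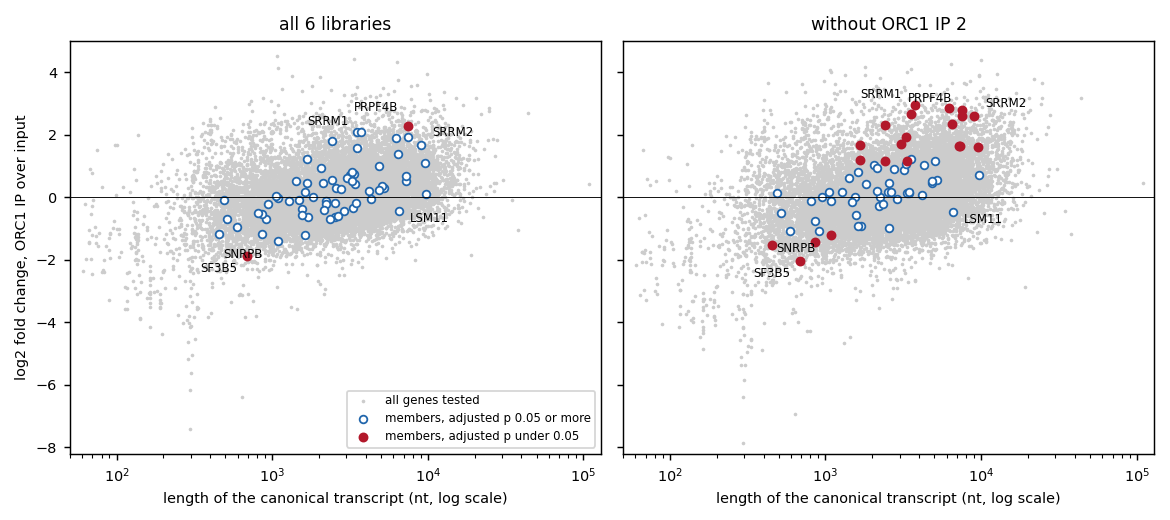
Log2 fold change of ORC1 IP over input (y axis) against the length of the canonical transcript (x axis, nt, log scale) for all genes tested with a transcript (grey dots) and the 65 mRNAs (circles, filled red at an adjusted p under 0.05), with all 6 libraries on the left and without ORC1 IP 2 on the right. Short mRNAs such as SF3B5 lie low and long ones such as PRPF4B lie high, with a Spearman rho of 0.64 on the left and 0.67 on the right, and LSM11 is a long mRNA below 0.

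The mRNAs with tandem GAA were also longer than those without, with medians of 4412 and 2226 nt. The 12 with the stretch had a median log2 fold change of 0.75 and the 53 without it -0.05, as against 0.61 and -0.06 for all genes with and without it. Its frequency followed length: 4.17% of the mRNAs of up to 2 kb, 20% of those of 2 to 4 kb and 37.5% of the longer ones held it, beside 6.49%, 11.7% and 21.6% of all genes. The 5 mRNAs whose stretch is printed above were picked with their values known. Among them PRPF4B, CWC22, SRRM1 and SRRM2 had log2 fold changes of 1.66 to 2.29, and U2AF2 had -0.41. A stretch of these letters is a description of the sequence and not a site of ORC1.

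Of 57 other spliceosome proteins, listed apart from the symbol rule, 4 mRNAs were higher and 2 were lower (limma, adjusted p under 0.05; 2.28% and 1.42% of all genes), with a median log2 fold change of 0.58. CWC15, a Prp19-related protein, had 589, 173 and 247 in inputs and 1954, 1171 and 895 in ORC1 IPs, at 2.11 ± 0.47 (limma, adjusted p = 0.033). ZCRB1 and RNPC3, both of the minor spliceosome, were at 2.24 ± 0.56 and 1.84 ± 0.43 (limma, adjusted p = 0.049 and 0.038), and LUC7L3, a U1-associated protein, at 1.96 ± 0.50 (limma, adjusted p = 0.049). In these 4 genes ORC1 IP 2 lay above every input, unlike in PRPF8 or SF3B1. The lower ones were PPIL1, a cyclophilin of the Prp19 group, at -1.67 ± 0.34, and NHP2L1, which binds U4 RNA, at -1.65 ± 0.38 (limma, adjusted p = 0.024 and 0.038). These calls depended on the fit: without inputs 2 or 3 or ORC1 IPs 1 or 3, limma called none of the 57 (7 to 17 higher and 3 to 5 lower at an unadjusted p under 0.05), and total count scaling and the GC and length correction each called 0 higher and 1 lower (limma, 15 higher and 7 lower, and 15 and 5, at an unadjusted p under 0.05). Over all genes tested, limma called 48 higher and 39 lower without input 2, and 6 and 23 without input 3. It called 196 and 119 without ORC1 IP 1, and 24 and 23 without ORC1 IP 3. With total count scaling it called 87 and 96, and with the GC and length correction 131 and 55. Of the 57, edgeR called 2 and 2, without LUC7L3 and ZCRB1, DESeq2 called 15 and 4, and the replicate block called 7 and 1, without NHP2L1 (limma, adjusted p = 0.068). Without ORC1 IP 2, 26 of the 57 were higher and 2 lower (limma; 11.9% and 6.38% of all genes). Of 16 mRNAs for proteins that assemble snRNPs none passed in limma with all libraries, and the median was -0.33. At an unadjusted p under 0.05, limma gave 1 higher and 2 lower, beside 12.2% and 9.45% of all genes. The extremes were TGS1, which methylates the cap of small nuclear RNAs, at 1.45 ± 0.55 and WDR77, a methylosome protein, at -1.09 ± 0.40 (limma, adjusted p = 0.148 and 0.135). TGS1 passed in DESeq2 (adjusted p = 0.022) and, at 2.11, without ORC1 IP 2 (limma, adjusted p = 0.003).

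Some of these counts are uncertain because the sources used here do not give how multiply matching reads and strand were counted. More than 10% of the 50-base stretches of 7 of the 65 mRNAs also occurred in another gene, among them SRRM1 (23.4%), LSM12 (19.7%, in LSM12P1) and U2AF1 (17.3%). More than 10% of the exonic length of 6 overlapped an exon on the opposite strand, among them PRPF40B (48.7%), SNRNP35 (44%), PRPF18 (15.9%) and PRPF39 (13.3%). PRPF4B, SF3B5, CWC22, SRRM2, SF3B1 and PRPF8 were in neither group.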

How the data were processed

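RNA of 3 inputs and 3 ORC1 IPs was sequenced as ribosome-depleted total RNA. Per the labels and the methods of the study, the authors used Trimmomatic to trim reads, STAR to align them to hg19, and featureCounts to count them per gene. The study compared ORC1 IPs with inputs in DESeq2, which serves here as an alternative to limma. The deposited values are a signal: counts that the authors divided by 1 size factor per library. All values (100%, tolerance 0.001) were whole multiples of 1 read, which gave the reads behind each value. The authors' deposited fold changes, p-values and means were not used. Genes whose mean normalised count was 10 or more were tested on log2(normalised count + 1) with limma 3.58.1 (intensity trend, no block, R 4.3.3) and Benjamini-Hochberg adjustment over 16513 genes. Fold changes on this scale understate changes of low genes. Alternatives were edgeR 4.0.16 and DESeq2 1.42.0 on recovered reads, other scalings, filters and pseudocounts, the replicate number as a block, a GC and length correction (spline with 4 df) and leaving out each library. The limma, edgeR and DESeq2 fits were tested on simulated data.

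The replicate numbers pair libraries by the labels. After subtraction of group means, libraries with the same number correlated at -0.322, -0.240 and 0.215. Transcripts and coordinates were taken from GENCODE v44 (GRCh38) and matched by gene identifier, whereas reads were counted on hg19. With 3 libraries per group, the spread between libraries, that of ORC1 IP 2 included, sets the standard errors.

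The members, role lists, other gene lists and markers were chosen with earlier results of these data known. Named were mRNAs with an adjusted p under 0.05, the highest and lowest of each role, and SF3B1, PRPF8, SNRNP70, SNRPB, U2AF2, LSM4 and SRRM2, and for the other lists the extremes and up to 4 called genes by size. CDC5L, LSM11, NHP2L1, PRPF3, PRPF6, PRPF39, SF3B2, SNRNP200, SNRPD2, SNRPF and genes that are only counted were named after their values were seen. One mRNA and 1 sequence are not reported here.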

Additional observations from a re-analysis of the deposited data

How the results depend on the processing

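The numbers of mRNAs called (1 higher, 1 lower) stayed the same with pseudocounts of 0.5 and 5, no filter, a filter at a mean of 50, and TMM and upper quartile scaling. Total count scaling called 0 lower (8 at an unadjusted p under 0.05) and moved the median of all genes to -0.19, with that of the 65 mRNAs at -0.11 and SNRNP48 at -0.016. edgeR called 2 higher, and DESeq2 on recovered reads called 9 higher and 3 lower, beside 7.67% and 4.35% of all genes. The replicate block called 2 higher (2.62% of all genes), as did edgeR with the block, in each case with CWC22, and it changed no other call among the 65 in limma. The GC and length correction called 0 higher and 0 lower (limma, 6 and 6 at an unadjusted p under 0.05), and 0 and 0 when combined with the block (7 and 6), and in both SNRNP35, SNRNP48 and SNRPD1 were at 0.060, -0.058 and -0.090. Leaving out 1 library gave 0 to 17 higher and 0 to 4 lower calls, with 17 and 4 without ORC1 IP 2, and 0 of both without input 2, input 3 or ORC1 IP 3 (limma, unadjusted 7 and 3, 4 and 4, 6 and 5). Over all 16513 genes limma called 48 higher and 39 lower without input 2, and 6 and 23 without input 3. It called 24 and 23 without ORC1 IP 3, and 1965 and 1053 without ORC1 IP 2. With 1 library left out, the median log2 fold change of the 65 mRNAs ran from -0.19 (without ORC1 IP 1) to 0.42, and the difference in read share from 0.353 to 1.09 percentage points. Among the mRNAs whose log2 fold changes are given above, signs turned for PRPF6 (-0.079 to 1.71), SF1 (-0.19 to 1.04), SF3B2 (-0.18 to 1.92), SNRPD1 (-0.14 to 0.52), SNRNP48 (-0.099 to 0.48), PRPF8 (-0.29 to 1.63), EIF4A3 (-1.06 to 0.15) and U2AF2 (-0.98 to 0.19). They also turned for others of the 65, such as SF3A1 (-0.35 to 1.16) and EFTUD2 (-0.59 to 1.01). Without ORC1 IP 2 and with the block, a setting chosen after seeing the data, 14 were higher and 3 lower (1602 and 740 of all 16513 genes), with EIF4A3 at 0.34 and U2AF2 at 0.53. The cause was not tested in any of these cases.

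With 3 libraries per group an exact permutation test cannot go below 0.1, so the read share could not pass in this design. Both calls made with all libraries were lost without input 2, input 3 or ORC1 IP 3, and that of PRPF4B also without ORC1 IP 1. Calls over all genes fell in these settings too, from 376 higher and 234 lower with all libraries. Without ORC1 IP 1 they were 196 and 119, and the other counts are given above. In these settings the log2 fold change of PRPF4B was 1.93 to 2.35 and that of SF3B5 was -1.70 to -1.88.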

Other observations

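The 16 pseudogenes that the symbol rule matched were kept apart from the 65 mRNAs, and 13 passed the filter on low values. LSM12P1 had a higher input level than its parent, 269 ± 37.2 normalised counts (SD, n = 3) against 123 ± 51.4 for LSM12. ORC1 IP 2 was the highest library for both, at 519 and 307, which is not the order of most of the 65 mRNAs. Copies of Sm mRNAs had negative values that did not pass the threshold: SNRPFP1 had a log2 fold change of -1.82 (limma, adjusted p = 0.054), SNRPEP4 one of -1.19 (limma, adjusted p = 0.084) and SNRPGP10 one of -1.72 (limma, adjusted p = 0.087). Reads that match both a parent and its copy may be counted in either row.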
